A study of Homo sapiens with 6 samples.

Results

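The genes described here are the 5 subunits of the transcription factor NF-kB, NFKB1, NFKB2, REL, RELA and RELB, and 5 genes known to act in its inhibition and feedback, NFKBIA, NFKBIE, NFKBIZ, TNFAIP3 and BIRC3. They were picked by name from a gene table of 57820 genes, and all 10 symbols were found there once each. RNA had been sequenced from M14, a human melanoma cell line that carries a doxycycline-inducible short hairpin RNA (shRNA) against STAG2, a subunit of the cohesin complex that forms and holds DNA loops. The 3 WT libraries came from these cells grown without doxycycline and the 3 STAG2-KD (KD) libraries from cells grown with it, both for 5 days. WT and KD cells were thus the same line with the same hairpin, and the controls carried no separate non-targeting hairpin. The paper names hygromycin, blasticidin or puromycin for keeping stable cell populations and does not say which of them these cells received. Since doxycycline was given to the KD cells alone, an effect of the drug and an effect of the knockdown cannot be told apart, and all values come from a single line.

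NF-kB proteins bind DNA as dimers. In resting cells the dimers are held in the cytoplasm by IkB proteins, which the IkB kinase marks for destruction when a receptor for TNF, interleukin-1 or microbial products is engaged. In the slower non-canonical route, the kinase NIK leads to trimming of the NFKB2 precursor, whose product pairs with RELB. Many of the genes that NF-kB switches on encode its own subunits and inhibitors, and so its activity is limited by feedback. In melanoma the pathway is known for its links to survival and to the secretion of cytokines.

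The libraries held 24895998 to 35181733 expected counts, and the levels given below are CPM, counts per 1000000 counts of the library after scaling by the TMM method. At these depths 3 counts, the floor used for detection, came to between 0.0853 and 0.121 CPM before the TMM scaling. This limit covers counting error only. STAG2, the targeted gene, stood at 66.5, 34.8 and 28.8 CPM in WT replicates 1, 2 and 3 and at 16.0, 7.31 and 6.70 CPM in KD replicates 1, 2 and 3, a log2 fold change of -2.12 (SE 0.43, edgeR quasi-likelihood test, Benjamini-Hochberg adjusted p = 0.0342). All 10 markers of the melanocyte lineage were expressed, and the leukocyte genes PTPRC and CD3E were at or near 0. The endothelial gene CDH5 and the epithelial gene EPCAM were near 0 too. Other markers of these kinds were not low. The mean levels in WT and KD were 33.5 and 101 CPM for the macrophage marker CD68 and 48.6 and 12.8 CPM for the fibroblast marker COL1A1. The epithelial keratins KRT18 and KRT8 had means of 300 and 34.1 CPM in WT and 229 and 25.7 CPM in KD. The replicate 1 libraries of both conditions stood apart from the others. The summed level of the 10 markers was 6532 CPM in WT replicate 1 against 2087 and 2073 CPM in WT replicates 2 and 3, and 2782 CPM in KD replicate 1 against 1505 and 1424 CPM in KD replicates 2 and 3. The lineage markers also moved with the condition: S100B fell (log2 fold change -1.35, edgeR adjusted p = 0.00949), and with the replicate number as a block, a fit described below with RELB, 6 of the 10 fell (SOX10, MLANA, PMEL, TYRP1, DCT and S100B, adjusted p of at most 0.0275 in edgeR) and 1, PAX3, rose (adjusted p = 0.0393). Of all tested genes, 4.42% fell and 5.1% rose in that blocked fit. COL1A1 fell in it as well (edgeR adjusted p = 0.00232). The 4 markers of dedifferentiated melanoma (AXL, NGFR, SOX9 and EGFR) were each lowest in replicate 1 in both conditions. WT replicate 1 also had the largest share of mitochondrial counts, 5.07% against 2.12% to 2.94%. It had the lowest depth, 24895998 expected counts, and yet the most genes above 0, 20646 against 16028 to 17995 in the other libraries. In bulk RNA, a change in the make-up of the cells and a change in RNA per cell cannot be told apart.

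Letters matching the DNA element that NF-kB binds are found close to the start of most of these genes, and some of them are shown for that reason. The kB consensus searched for was 3 G, a purine, any 2 bases, 2 pyrimidines and 2 C, on both strands, with overlapping matches allowed. RefSeq promoter windows (GRCh38.p14, 250 bases before to 50 bases after each start) were matched for 8 of the 10 genes, in 13 windows. No window was available for RELB or NFKBIE, and so neither was searched. The consensus was present in 9 of the 13 windows and for 7 of the 8 genes, against 11.3% of all 35116 windows and 13.3% of the 27305 genes that have one. The exception was RELA, with no match in either of its windows. Capitals mark the matches, lower case the bases around them, and each sequence reads 5′ to 3′ on the strand of its gene. A match is a description of the letters, and binding was not measured here.
NFKB1, chr4:102501290-102501339, plus strand: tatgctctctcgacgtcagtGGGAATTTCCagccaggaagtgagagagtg
NFKB2, chr10:102394451-102394529, plus strand: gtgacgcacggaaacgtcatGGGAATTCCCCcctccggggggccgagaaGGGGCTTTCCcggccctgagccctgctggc
NFKB2, downstream start, chr10:102395664-102395704, plus strand: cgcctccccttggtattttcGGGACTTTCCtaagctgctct
REL, chr2:60881507-60881557, plus strand: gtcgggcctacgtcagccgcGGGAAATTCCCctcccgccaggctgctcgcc
NFKBIA, chr14:35404801-35404850, minus strand: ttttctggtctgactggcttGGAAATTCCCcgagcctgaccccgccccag
NFKBIZ, chr3:101827747-101827796, plus strand: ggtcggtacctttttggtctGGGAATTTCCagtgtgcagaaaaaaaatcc
TNFAIP3, chr6:137867172-137867233, plus strand: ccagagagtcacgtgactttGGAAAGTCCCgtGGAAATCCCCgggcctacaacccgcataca
BIRC3, chr11:102317265-102317314, plus strand: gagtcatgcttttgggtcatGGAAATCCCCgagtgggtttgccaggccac
The stretch nearest to a start was that of NFKB2 at its downstream start, whose first matching base lies 21 bases before it, and those of REL and NFKB1 begin 47 and 49 bases before their starts. The matches of NFKBIA and TNFAIP3 begin 81 and 67 bases before theirs. Several matches, overlapping ones included, lie in the windows of TNFAIP3, REL, BIRC3 and both NFKB2 sequences shown, and in a NFKBIZ window whose sequence is not shown. A further stretch of BIRC3 and another of the downstream NFKB2 window are not shown either. The NFKB2 window furthest upstream holds no match.

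To compare genes with one another, levels were divided by length, the summed length of each gene's annotated exons in kb. The subunit RELA, which carries the activation domain of the commonest NF-kB dimer, had the highest level per length in each condition, at 25.5 ± 7.45 CPM per kb in WT and 31.7 ± 2.87 CPM per kb in KD (SD, n = 3). In WT it was followed by NFKB2 at 13.9 ± 3.18 CPM per kb, NFKBIE at 10.4 ± 2.04, RELB at 8.28 ± 1.33 and NFKBIA at 8.14 ± 2.90 CPM per kb. The library ranges of neighbours overlapped along this run from NFKB2 to NFKBIA, and so their order is not resolved. NFKB1, which encodes the p105 precursor of p50, was lower at 2.46 ± 0.106 CPM per kb, its libraries below all those of NFKBIA. The feedback genes NFKBIZ and TNFAIP3 had 1.47 ± 1.51 and 1.41 ± 0.117 CPM per kb in WT, and NFKBIZ overlapped both NFKB1 and TNFAIP3. REL and BIRC3 were the lowest, at 0.106 ± 0.126 and 0.0902 ± 0.0526 CPM per kb, and overlapped each other. In KD RELB came next after NFKB2, at 17.1 ± 5.65 CPM per kb, and its range took in all 3 NFKB2 libraries, whose mean was 17.4 ± 0.989 CPM per kb. BIRC3, at 0.303 ± 0.271 CPM per kb, and REL, at 0.185 ± 0.0955 CPM per kb, overlapped as in WT. These levels depend on the length used, since NFKB1 has 15679 bases of annotated exon but 7040 in its longest transcript, which gives 5.48 CPM per kb in WT.

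**Figure D1:**
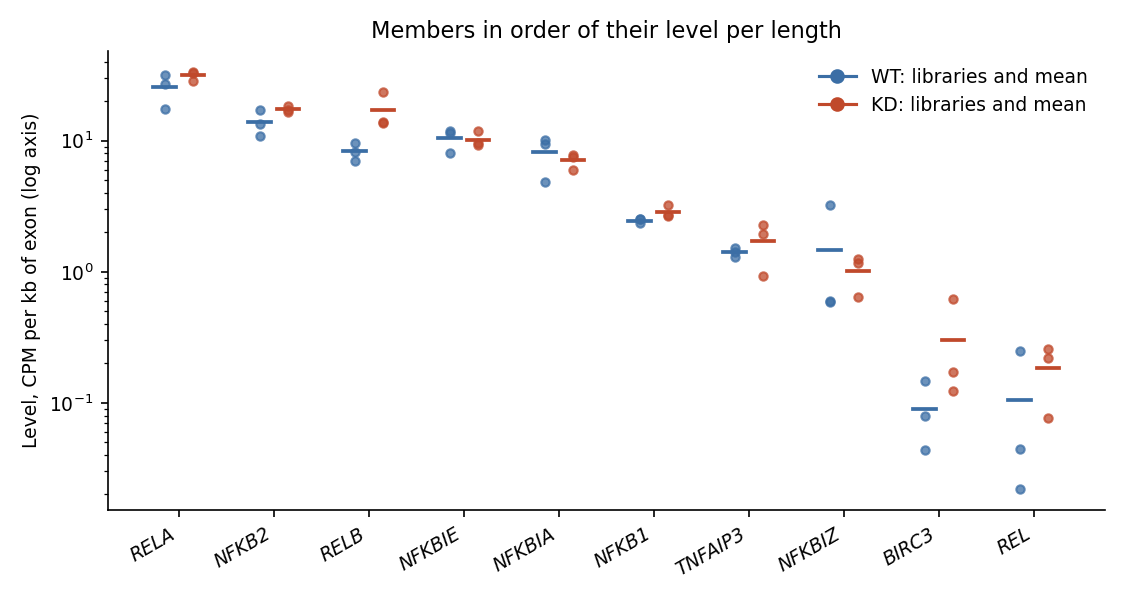
Level of each of the 10 genes in CPM per kb of exon on a log axis, with 1 point for each of the 3 WT and 3 KD libraries and the mean of each condition. RELA stands highest (25.5 in WT, 31.7 in KD) and REL and BIRC3 lowest, and RELB is the gene whose mean moves most among the 5 highest, from 8.28 to 17.1.

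RELB was the member with the clearest difference between the conditions, and it was higher in KD. It encodes the subunit that acts mainly in the non-canonical route as the partner of the NFKB2 product p52, and it (ENSG00000104856) lies at chr19:45504719-45541450 on the plus strand (GRCh37, as are all gene positions below). Its levels were 21.0, 28.9 and 24.5 CPM in WT replicates 1, 2 and 3 and 70.7, 41.0 and 41.6 CPM in KD replicates 1, 2 and 3. No KD library was as low as any WT library, and KD replicate 1 was far above the other KD libraries. The mean level was 24.8 ± 3.98 CPM without and 51.1 ± 16.9 CPM with the knockdown (SD, n = 3), a fold of 2.06 with a 95% interval from 1.36 to 3.12. The log2 fold change of 1.04 (SE 0.27) had an adjusted p of 0.0868 in edgeR's quasi-likelihood test and did not pass the threshold of 0.05. Between libraries of the same replicate number, KD exceeded WT by 1.75, 0.50 and 0.77 on the log2 scale in pairs 1, 2 and 3.

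Libraries with the same replicate number deviated together from their condition means (r = 0.535, 0.361 and 0.306 for replicates 1, 2 and 3). Across replicates 2 and 3 the correlation was 0.209 and 0.177, so these are less clearly told apart than replicate 1. The pairing was thus read from these same data. Each gene was therefore also fitted with the replicate number as a block. RELB passed in this fit, with a log2 fold change of 1.00 (SE 0.24, 95% interval 0.46 to 1.54, edgeR adjusted p = 0.0279), as 5.1% of all tested genes did in that direction. It also passed in DESeq2 without a block (adjusted p = 0.0164, 3.51% of genes higher) and in edgeR without the filter on low counts (adjusted p = 0.00358, 2.36% of genes higher). Without KD replicate 1 the log2 fold change was 0.74 (edgeR adjusted p = 0.225), and without both replicate 1 libraries it was 0.64 (edgeR adjusted p = 0.116, or 0.0679 with the block). The size of the difference therefore depended on replicate 1, while the direction was the same in all 3 pairs. Pair 1 was also the one in which 6 of the 10 melanocyte markers were highest in both conditions. The part of that difference between libraries, and of the lower melanocyte markers in KD, in the RELB value was not tested.

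**Figure D2:**
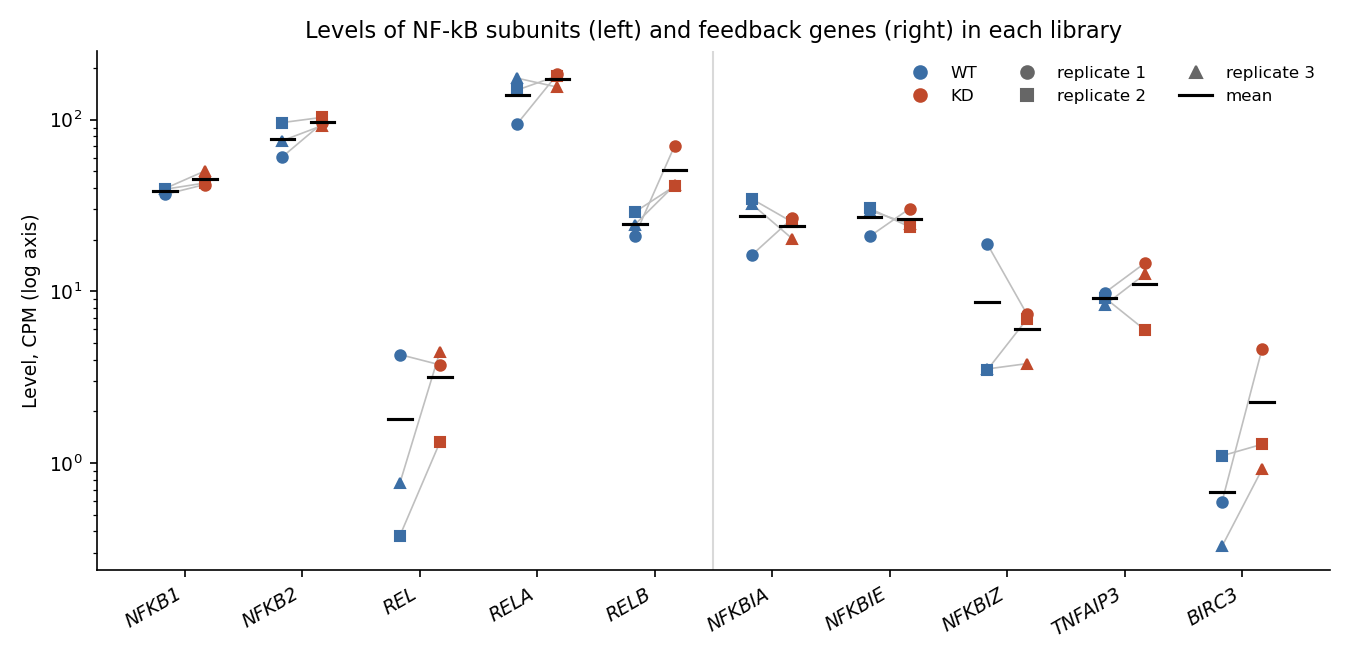
Level of each gene in each library in CPM on a log axis, WT in blue and KD in red, with the replicate number as the symbol, grey lines joining libraries of the same number and black bars for the means. RELB and NFKB1 are the genes whose 3 KD points lie above all 3 WT points, and REL, NFKBIZ and BIRC3 have the widest spread between libraries.

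The other 4 subunits did not pass in any setting that was run. Here and for the genes that follow, adjusted p-values are those of edgeR's quasi-likelihood test, without a block unless one is named. NFKB1 (ENSG00000109320, chr4:103422487-103538459, plus strand) was at 36.7, 39.3 and 39.7 CPM in WT and 41.9, 42.8 and 50.2 CPM in KD, again in the order of replicates 1, 2 and 3, which holds for the values that follow too. All 3 KD libraries were above all 3 WT libraries, but by little, with a log2 fold change of 0.22 (95% interval -0.21 to 0.65, adjusted p = 0.697). An exact two-sided permutation test of the mean difference gave p = 0.1 for both NFKB1 and RELB, the smallest that 3 libraries against 3 allow, and for 11.8% of all tested genes the 3 KD libraries likewise all exceeded the 3 WT libraries. NFKB2, the p100 precursor of p52 and the partner of RELB (ENSG00000077150, chr10:104153867-104162281, plus strand), had 60.8, 96.2 and 75.5 CPM in WT and 95.5, 103 and 92.5 CPM in KD. WT replicate 1 was the lowest library and the groups overlapped through WT replicate 2. Its log2 fold change was 0.32 (95% interval -0.14 to 0.79, adjusted p = 0.557), an interval that leaves room for a rise of 1.73-fold.

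RELA (ENSG00000173039, chr11:65421070-65430561, minus strand) was at 94.8, 149 and 174 CPM in WT and 184, 180 and 155 CPM in KD. The low value was WT replicate 1, and the remaining libraries of the conditions overlapped. The log2 fold change was 0.31 (95% interval -0.23 to 0.85, adjusted p = 0.650). REL, which encodes c-Rel, a subunit known mainly from lymphocytes (ENSG00000162924, chr2:61108626-61158747, plus strand), had 4.28, 0.377 and 0.765 CPM in WT and 3.73, 1.32 and 4.44 CPM in KD, from as few as 13 counts in WT replicate 2. Its spread within each condition was as wide as the range between them, and the log2 fold change of 0.81 had a 95% interval from -1.28 to 2.90 (adjusted p = 0.793). REL overlaps the long non-coding RNA ENSG00000267520 on the same strand and its expected counts were not whole numbers in 5 libraries, so the division of reads between both genes is uncertain. Without WT replicate 1 the value for REL was 2.46 (adjusted p = 0.209), and without both replicate 3 libraries it was 0.09.

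**Figure D3:**
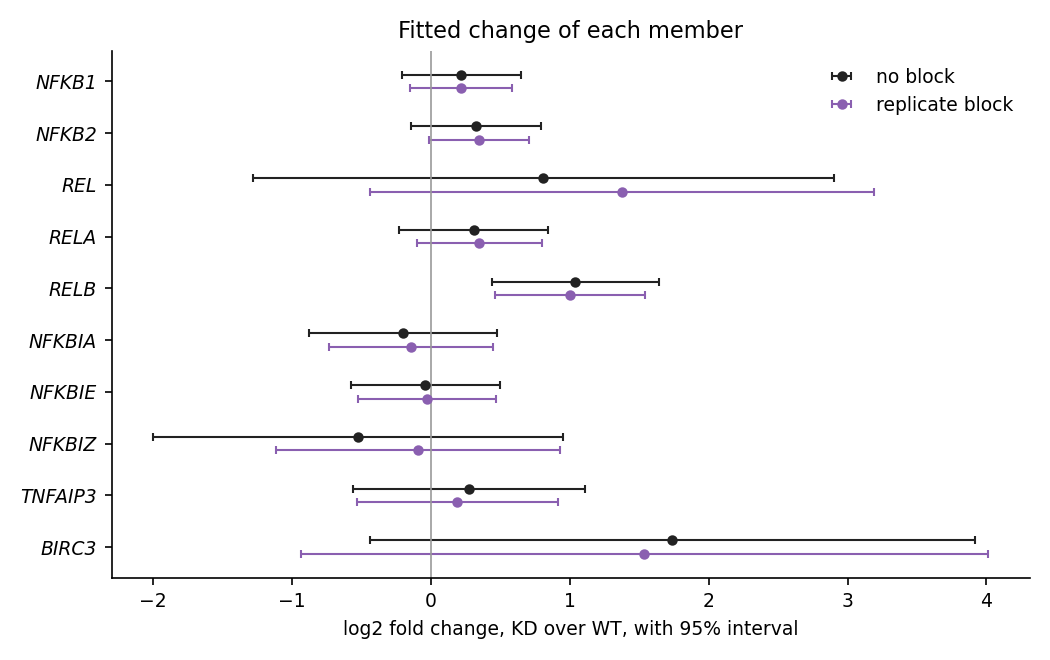
Fitted log2 fold change of each gene, KD over WT, with its 95% interval, from the fit without and the fit with the replicate block. The RELB interval lies wholly above 0 in both fits (0.44 to 1.64 and 0.46 to 1.54), and those of the other 9 genes include 0.

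Neither of the classical inhibitors differed beyond the spread of the libraries. NFKBIA encodes IkB-alpha, the inhibitor that is destroyed and made anew in each round of signalling (ENSG00000100906, chr14:35870285-35873955, minus strand). It was at 16.4, 34.4 and 32.1 CPM in WT and 26.6, 25.3 and 20.3 CPM in KD. The WT libraries spanned the KD ones, replicate 1 being the lowest of all 6, and the log2 fold change was -0.20 (95% interval -0.87 to 0.48, adjusted p = 0.852). KD was above WT in pair 1 and below it in pairs 2 and 3. NFKBIE, which encodes IkB-epsilon, a slower feedback inhibitor (ENSG00000146232, chr6:44225903-44233525, minus strand), had 20.9, 30.4 and 29.6 CPM in WT and 30.3, 23.8 and 24.7 CPM in KD, with the same order of pairs. Its log2 fold change was -0.04 (95% interval -0.58 to 0.50, adjusted p = 0.971), and its sign changed when single libraries were left out.

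NFKBIZ encodes IkB-zeta, a nuclear IkB protein that joins NF-kB on the promoters of some inflammatory genes rather than holding it in the cytoplasm (ENSG00000144802, chr3:101546835-101579866, plus strand). Its levels were 18.9, 3.48 and 3.53 CPM in WT and 7.34, 6.90 and 3.79 CPM in KD. WT replicate 1 alone was high, and the other 2 WT libraries were the lowest of all 6. With all libraries the log2 fold change was -0.52 (a fold of 0.696 with a 95% interval from 0.251 to 1.93, adjusted p = 0.815), and without WT replicate 1 it was 0.77 (adjusted p = 0.475), so that 1 library set its direction. NFKBIZ shares its strand and part of its span with NXPE3, a gene that averaged 948 expected counts per WT library and 828 per KD library.

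TNFAIP3 encodes A20, an enzyme that edits ubiquitin chains and shuts off signalling below the TNF receptor (ENSG00000118503, chr6:138188351-138204451, plus strand). It was at 9.80, 9.20 and 8.30 CPM in WT and 14.6, 5.99 and 12.5 CPM in KD. The WT libraries lay close together, while KD replicate 2 was below and the other KD libraries above all of them. The log2 fold change was 0.28 (95% interval -0.56 to 1.11, adjusted p = 0.826). BIRC3, the ubiquitin ligase cIAP2, which promotes canonical signalling and holds the kinase NIK low (ENSG00000023445, chr11:102188215-102210134, plus strand), had 16, 38 and 9 expected counts in WT and 148, 38 and 30 in KD, or 0.596, 1.10 and 0.328 CPM against 4.61, 1.29 and 0.918 CPM. KD replicate 1 was the one high library. The log2 fold change was 1.74 (95% interval -0.44 to 3.91, adjusted p = 0.469), the largest among the 10 genes and one of the least precise, and it was 0.70 without KD replicate 1 (adjusted p = 0.884).

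Over the whole group, 0 of the 10 genes passed edgeR's test at an adjusted p under 0.05, where 2.59% of all 15605 tested genes did. At an unadjusted p under 0.05 in the same edgeR fit across all genes the count was 1 of 10, which was RELB, against 14.8% of all tested genes. With the replicate block, with DESeq2 and without the filter RELB was called and the other 9 were not, and limma-voom without a block called none. The median log2 fold change of the 10 genes was 0.29, against -0.03 over all tested genes, and 7 of them lay above 0, as 48.0% of all tested genes did. All 5 subunits had a value above 0, with a median of 0.32, and 2 of the 5 inhibitors and feedback genes did, with a median of -0.04. KD was above WT in all 3 pairs for 4 genes (NFKB1, NFKB2, RELB and BIRC3), which was the case for 23.0% of all tested genes. No member had every KD library below every WT library, against 10.5% of tested genes.

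**Figure D4:**
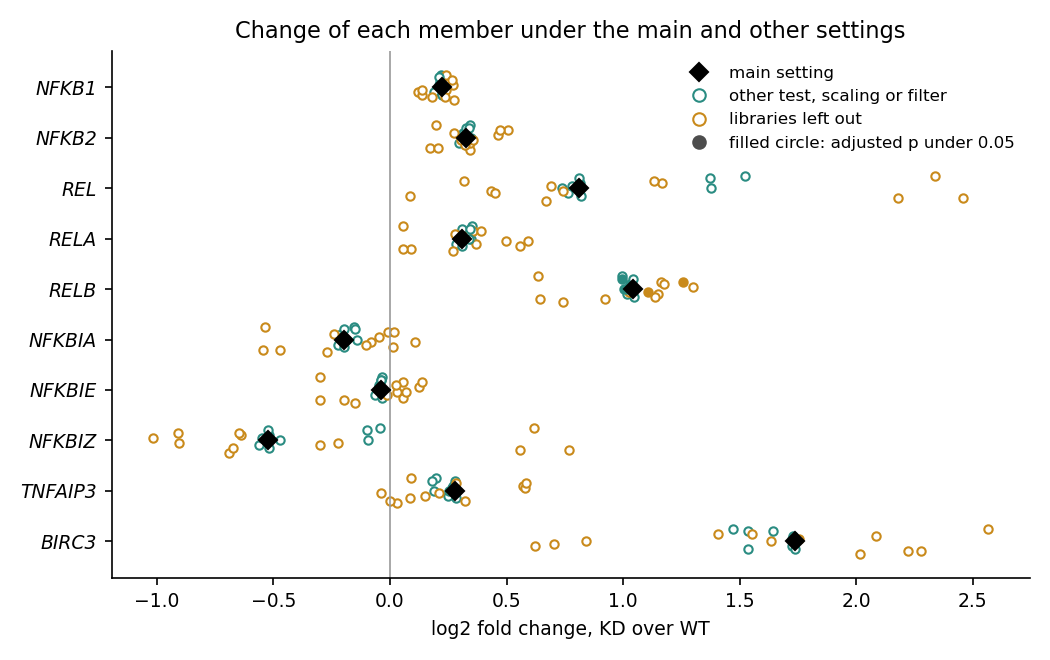
Log2 fold change of each gene in the fit as reported (black diamonds) and in the 21 alternative settings, with other tests, scalings and filters in green, left-out libraries in orange, and filled circles where the adjusted p was under 0.05. The values of RELB run from 0.64 to 1.30 with 7 filled, those of NFKBIZ from -1.02 to 0.77, and REL and BIRC3 vary most.

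Because an inhibitor is usually weighed against the factor it holds, each gene was also expressed as a ratio to RELA within the same library, a measure chosen after the values had been seen. NFKBIA counts per RELA count were 0.172, 0.231 and 0.184 in WT and 0.145, 0.141 and 0.131 in KD. NFKBIE counts per RELA count were 0.220, 0.204 and 0.169 in WT and 0.165, 0.132 and 0.160 in KD. Both ratios were thus lower in every KD library than in every WT library, though for NFKBIE the nearest libraries of the conditions almost met. The ratio of RELB to RELA was 0.222, 0.194 and 0.140 in WT and 0.385, 0.228 and 0.269 in KD, with all KD libraries above the WT ones but close to them in KD replicate 2. For each of the 3 ratios the exact two-sided permutation p was 0.1, the smallest possible. Of all tested genes, 18.3% had a ratio to RELA that was lower in every KD library and 3.65% one that was higher in every KD library. The ratios of the other 6 genes overlapped between the conditions. These ratios count reads and not molecules, since gene lengths differ. RELA, NFKBIA and NFKBIE themselves passed in no setting, and from 3 libraries against 3 no change in the ratios can be called.

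The other genes of the pathway were described from 8 lists written from general knowledge, 108 genes of which 89 were tested. In the fit without a block 3 of the 89 rose and 0 fell, where 1.75% of all tested genes rose and 0.839% fell. With the block 18 rose, or 20.2% against the 5.1% over all tested genes, and 1 fell, where 4.42% of all tested genes fell. Without both replicate 1 libraries the blocked fit gave 18 of the 89 higher and 5 lower, where 812 of all 15991 genes then tested were higher and 629 lower. The fit without a block gave 5 higher and 4 lower, where 461 of the 15991 were higher and 296 lower. The blocked fit in which the pathway genes rose is the one in which 6 of the 10 melanocyte markers fell, and the part of that shift in the pathway values was not tested. The genes named below that passed in the blocked fit alone were chosen after their values were seen. The 9 kinases held 0 calls without the block and 1 with it, the death domain kinase RIPK1, which rose from 22.8 ± 0.797 CPM in WT to 39.5 ± 2.86 CPM in KD (log2 fold change 0.79, adjusted p = 0.0800, or 0.0202 with the block). IKBKB and IKBKG, the catalytic and the regulatory subunit of the IkB kinase, had log2 fold changes of 0.54 and 0.30 and adjusted p of 0.224 and 0.672, and neither passed with the block. Of the 15 tested adaptors, which carry the signal from receptors to the kinases, 0 passed without the block and 2 rose with it, MYD88 (log2 fold change 1.00, adjusted p = 0.0133 with the block) and BCL10 (0.84, adjusted p = 0.0210 with the block). IRAK1, the most abundant adaptor, was at 328, 759 and 831 CPM in WT and 459, 511 and 529 CPM in KD, and its value of -0.36 had an adjusted p of 0.711.

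Among the 13 genes of ubiquitin editing and RNA decay that tune the pathway, 2 rose and 0 fell without the block. RBCK1 encodes HOIL-1, a part of the complex that builds linear ubiquitin chains, and was at 116, 169 and 160 CPM in WT and 284, 380 and 356 CPM in KD (log2 fold change 1.20, SE 0.22, adjusted p = 0.0221). N4BP1, an inhibitor of NF-kB signalling that binds ubiquitin, was at 24.4, 23.7 and 23.0 CPM in WT and 70.5, 88.3 and 90.6 CPM in KD (log2 fold change 1.81, SE 0.20, adjusted p = 0.00122). All 3 KD libraries lay above all 3 WT libraries for both genes, and, unlike for RELB, KD replicate 1 was the lowest of the KD libraries. ZC3H12A, an RNase that degrades inflammatory mRNAs, passed with the block (1.67, adjusted p = 0.0121). The 5 other IkB and nuclear regulators held 0 calls in both fits. NFKBIB and BCL3, the most abundant of these, had log2 fold changes of 0.14 and -0.61 with adjusted p of 0.856 and 0.586, and BCL3 was at 23.4 CPM in WT replicate 1 against 76.5 and 91.2 CPM in the other WT libraries.

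Receptors held 0 calls of 13 tested without the block and 4 with it, all higher in KD: TNFRSF1B, TNFRSF12A, TNFRSF10A and TNFRSF10B, which bind TNF, TWEAK and TRAIL. TNFRSF12A, the TWEAK receptor, rose from 258 ± 148 to 572 ± 61.5 CPM (log2 fold change 1.32 and adjusted p = 0.00931 with the block, 1.15 and 0.187 without it). TNFRSF1A, the main TNF receptor, had a value of 0.23 (adjusted p = 0.797). Only 4 of the 13 ligands had enough counts to be tested, and 5 (LTA, TNFSF11, CD40LG, IL1A and IL33) were at 0 in every library, which allows up to the floor of 3 counts in each. TNF itself was between 0 and 0.522 CPM. IL1B was at 2.38, 3.28 and 6.26 CPM in WT and 13.4, 11.4 and 14.4 CPM in KD, with all KD libraries above WT (log2 fold change 1.82 and adjusted p = 0.00936 with the block, 1.72 and 0.0678 without it). TNFSF12, which encodes TWEAK, had a value of -0.03 (adjusted p = 0.976).

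Genes known as targets of NF-kB included 1 call without the block and calls in both directions with it. Of 15 tested inflammatory targets, 1 rose without the block, PTGS2, the inducible cyclooxygenase, at 3.39, 2.70 and 2.26 CPM in WT and 12.8, 7.75 and 9.24 CPM in KD (log2 fold change 1.83, SE 0.39, adjusted p = 0.0451). With the block CCL5, LIF and PTGS2 rose and PLAU, the urokinase gene, fell by 1.91 on the log2 scale (adjusted p = 0.0449). IL6 was at 0 in every library, and ICAM1, an adhesion molecule often used as a readout of NF-kB, was at 299, 667 and 536 CPM in WT and 407, 770 and 590 CPM in KD (adjusted p = 0.833). The 16 survival and feedback targets held 0 calls without the block and 4 higher with it, namely BCL2A1, BCL2L1, SDC4 and CCND1, and the median log2 fold change over the list was 0.07. SDC4, a syndecan, and CCND1, cyclin D1, had values of 0.87 and 0.88 without the block (adjusted p = 0.331 and 0.308) and 0.98 and 1.02 with it (adjusted p = 0.0104 and 0.0148). Both were lowest in WT replicate 1, at 85.4 and 121 CPM. The macrophage marker CD68 was the 1 of 6 leukocyte markers that differed, rising from 33.5 ± 7.25 to 101 ± 21.2 CPM (adjusted p = 0.00855), while PTPRC, CD3E and ITGAM stayed at or near 0 in all libraries.

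**Figure D5:**
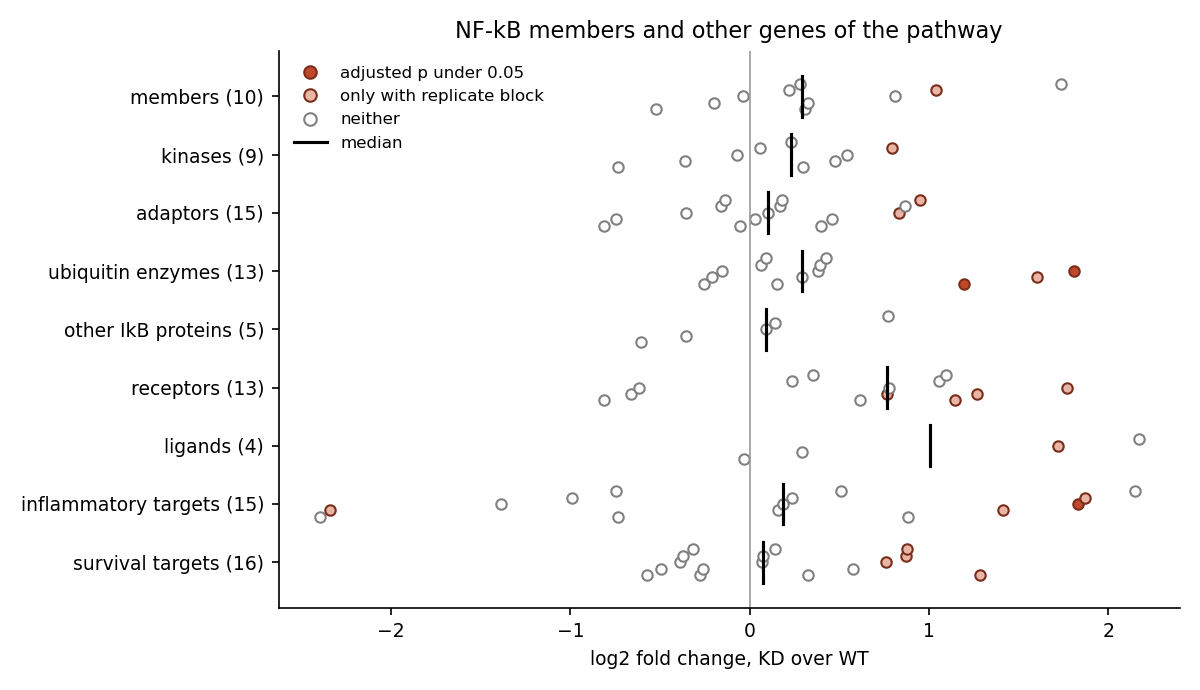
Log2 fold change, KD over WT, of the 10 members and of the tested genes of each pathway list, with dark red points for an adjusted p under 0.05, pale red for genes that passed with the replicate block alone, and a bar for each list's median. The 3 dark red points are N4BP1, RBCK1 and PTGS2, the member in pale red is RELB, and the list medians lie between 0.07 and 1.00.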

How the data were processed

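The authors aligned the reads with STAR to hg19, counted them with RSEM and deposited expected counts per gene for 6 libraries of M14 cells, neither scaled nor filtered. Where a read fits more than 1 gene, RSEM shares it out. The kit was directional, and the strand setting of the counting is not given in the sources used here. Groups came from the labels, which do not say that replicates were separate cultures. In the figure legend for its gene set analysis of the RNA-seq data, the paper counts the replicates as biologically independent samples. The paper's methods do not describe how the replicate cultures were kept apart. The p-values measure the spread between these libraries.

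Expected counts were rounded and analysed in R 4.3.3. Genes were kept by filterByExpr (15605 of 57820), scaled by TMM and tested with edgeR 4.0.16 (quasi-likelihood, Benjamini-Hochberg adjustment over all tested genes, threshold 0.05), with no block, since the paper's methods name no pairing. The SEs and 95% intervals given for edgeR are approximations, worked back from each log2 fold change and the F statistic of its test. Same-numbered WT and KD libraries correlated in their deviations from the condition means (r = 0.535, 0.361 and 0.306 for replicates 1, 2 and 3 over 11662 genes, against -0.423 to 0.209 for other pairs). The 3 deviations of a condition cancel out for each gene, so part of the contrast with other pairs is built in. The numbers were still taken to pair the libraries, and a block was fitted as well: 404 genes passed without it and 1486 with it. Alternatives were DESeq2 1.42.0, limma-voom (limma 3.58.1), upper-quartile scaling, no filter, at least 10 counts in every library, no rounding, an adjusted p under 0.01, left-out libraries, and the longest transcript as the length. Gene positions and exon lengths are from GENCODE on GRCh37.

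The 10 genes and the lists were chosen with earlier results of these data known. Of each pathway list the text names up to 4 genes with the lowest adjusted p under 0.05, or the 2 most abundant where none passed. Any other gene was named after its values were seen. The other assays of the study were not analysed here.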

Additional observations from a re-analysis of the deposited data

How the results depend on the processing

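The direction for NFKB1, NFKB2, REL, RELA, RELB and BIRC3 was the same in every alternative that gave a value. The minimum of 10 counts in every library leaves BIRC3 out and gives none for it. RELB passed in 7 of 21 alternatives. The number of the 10 genes called was 0 as reported and 1, in each case RELB, with DESeq2, without the filter on low counts, with the replicate block, with DESeq2 or limma-voom and the block, and with the block but without replicate 2 or 3. The combinations of DESeq2, limma-voom or left-out pairs with the block were added after the data were seen. Genes called numbered 404 as reported, 979 with DESeq2, 1103 without the filter, 1486 with the replicate block, 2223 and 2222 with the block in DESeq2 and limma-voom, 137 at an adjusted p under 0.01, 1441, 1245 and 1504 with the block and pair 1, 2 or 3 left out, and 25 to 757 with libraries left out and no block. Of the genes called, 273 were higher and 131 lower as reported, against 547 and 432 with DESeq2. Pathway genes called numbered 3 as reported, 12 with DESeq2 and 5 with limma-voom, all higher, 19 without the filter (16 higher, 3 lower), 19 with the replicate block (18 and 1), 22 and 26 with the block in DESeq2 (21 and 1) and limma-voom (21 and 5), 23, 16 and 20 with the block and pair 1, 2 or 3 left out (18 and 5, 15 and 1, 19 and 1), and 0 to 9 with libraries left out and no block. Of these last, 4 were higher and 2 lower without WT replicate 1 and 5 and 4 without replicate 1, and the others held no lower call. The STAG2 log2 fold change ran from -2.63 to -1.68 with libraries left out, and its adjusted p was above 0.05 without WT replicate 2 (-2.26), WT replicate 3 (-2.35), KD replicate 2 (-1.94), KD replicate 3 (-1.92), both replicate 2 (-2.08) or both replicate 3 libraries (-2.15), the last 2 with 2 libraries a condition, and it passed in every fit with the block. Signs turned for members that never passed. NFKBIA ran from -0.54 to 0.014 with libraries left out, and with the block was 0.017 and 0.11 without pairs 2 or 3. NFKBIE ran from -0.30 to 0.12, and with the block was 0.14 and 0.071 without pairs 2 or 3. NFKBIZ ran from -1.02 to 0.77, and with the block was 0.56 without pair 1. TNFAIP3 was -0.00011 and -0.039 with the block and without pairs 1 or 3. The replicate block changed no other call among the 10 genes. The cause of these changes was not tested. Depth limits REL and BIRC3, with as few as 13 and 9 counts in a library.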

Other observations

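The levels of NFKB1, NFKB2, RELA, RELB, NFKBIA and NFKBIE were each lowest in WT replicate 1 among the WT libraries, at 36.7, 60.8, 94.8, 21.0, 16.4 and 20.9 CPM, while REL, NFKBIZ and TNFAIP3 were highest there, at 4.28, 18.9 and 9.80 CPM. In WT replicate 1 the summed level of the 4 markers of dedifferentiated melanoma was 69.7 CPM, against 570.2 and 614 CPM in the other WT libraries. In KD the same sum was 191 CPM in replicate 1 and 455 and 461 CPM in replicates 2 and 3, and RELA, RELB, NFKBIA, NFKBIE, NFKBIZ, TNFAIP3 and BIRC3 were each highest in KD replicate 1. These values are given as they stand, and the relation between them was not tested.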
